A study of Rattus norvegicus with 6 samples.

Results

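The genes described here are 10 regulators of the G1 phase of the cell cycle, measured in rat thyroid of non-pregnant (NP) rats and of rats in late pregnancy (LP, day 18). They are the D-type cyclins Ccnd1, Ccnd2 and Ccnd3, cyclin E1 (Ccne1), the cyclin-dependent kinases Cdk2, Cdk4 and Cdk6, the inhibitors Cdkn1b (p27) and Cdkn1c (p57), and the retinoblastoma gene Rb1. They were chosen with earlier results of these data known and were matched by gene symbol. All 10 were found among the 15388 genes of the count tables. The shares of members and of listed genes called below are therefore descriptions only. The animals were adult Sprague-Dawley rats. LP rats had been caged overnight with a male, and their pregnancy was timed from the finding of a vaginal plug, whereas NP rats were the controls. No treatment or genetic change was named for either group. Poly(A)+ RNA of thyroid tissue was sequenced, with 3 libraries for each group. In such bulk tissue, fewer cells of a type and less RNA per cell cannot be told apart.

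Cells leave G1 when growth signals raise the D-type cyclins, which bind Cdk4 or Cdk6 and begin to phosphorylate the retinoblastoma protein. Cyclin E with Cdk2 then completes this step, the E2F transcription factors are released from the retinoblastoma protein, and genes of DNA replication are switched on. Cdkn1b and Cdkn1c bind cyclin-kinase complexes and restrain them. In the thyroid, most follicular cells of an adult gland rest outside the cycle, and thyroid-stimulating hormone is a known signal for their growth. The comparison of LP with NP asks how the transcripts of these G1 regulators differed in the maternal gland late in pregnancy.

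The libraries held between 2752144 and 3449857 counted reads. The labelled tissue was checked by thyroglobulin (Tg), the precursor of thyroid hormone, which had 22.9% to 24.5% of all reads in every library. Markers of C cells and of parathyroid were present as well, and their summed levels were lower in every LP library than in every NP library. The C cell markers summed to between 14326 and 15310 CPM in NP and between 12696 and 13476 CPM in LP. The parathyroid markers summed to between 4474 and 4848 CPM in NP and between 3730 and 4045 CPM in LP. The median log2 fold change was -0.011 for the C cell markers and 0.096 for the parathyroid markers. The lower sums thus do not show a fall across the markers of each list. In each group, replicates 2 and 3 agreed within sampling noise, with a chi-square per degree of freedom of 1.02 in NP and 0.995 in LP, whereas replicate 1 differed from them with values between 3.70 and 4.11. Each mean ± SD below uses the average of replicates 2 and 3 as a single sample, with n = 2 per group. The p-values given below measure the spread between these libraries, which may be technical in part, and each member called is given also with replicates 2 and 3 summed into 1 sample. Levels are in CPM, the reads per 1000000 of the library, with TMM scaling, which sets the libraries on a common scale by the genes that change least. Gene lengths were not used, so levels are compared between groups and not between genes. The LP libraries stood apart in skeletal muscle transcripts. The 16 measured skeletal muscle markers summed to between 36.2 and 84.0 CPM in NP and between 6156 and 6499 CPM in LP, and 14 of 15 tested rose, while 2 of the 16 were at 0 in all NP libraries.

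The quasi-likelihood test of edgeR was run on LP against NP for the 11738 genes with enough reads, and p-values were adjusted by Benjamini-Hochberg over all of these. Of the 10 members, 8 passed this filter on low counts, while Ccne1 and Cdk6 had too few reads. Among the 8, 3 were lower in LP at an adjusted p-value below 0.05 (Ccnd1, Cdk4 and Cdkn1c), or 37.5% of those tested, while 11.7% of all genes tested were lower. None of the 8 was higher in LP in edgeR, none at an unadjusted p-value below 0.05 and none in DESeq2, against 15.3% of all genes tested in edgeR and 8.53% in DESeq2. The study's further cutoff, a fold change above 2, was passed by none of the 8 in edgeR or DESeq2 with all 6 libraries, against 4.90% of all genes upward and 0.537% downward in edgeR. The median log2 fold change of the 8 members was -0.14, and that of all genes tested was -0.0089. With replicates 2 and 3 summed, the same 3 members were lower, against 8.36% of all genes lower and 12.3% higher in that setting. With scaling factors computed without the skeletal muscle markers, 3 members were lower as well, where 1370 genes were lower over all genes. DESeq2 left 1 of the 3, Ccnd1, against 4.74% of all genes lower.

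**Figure D1:**
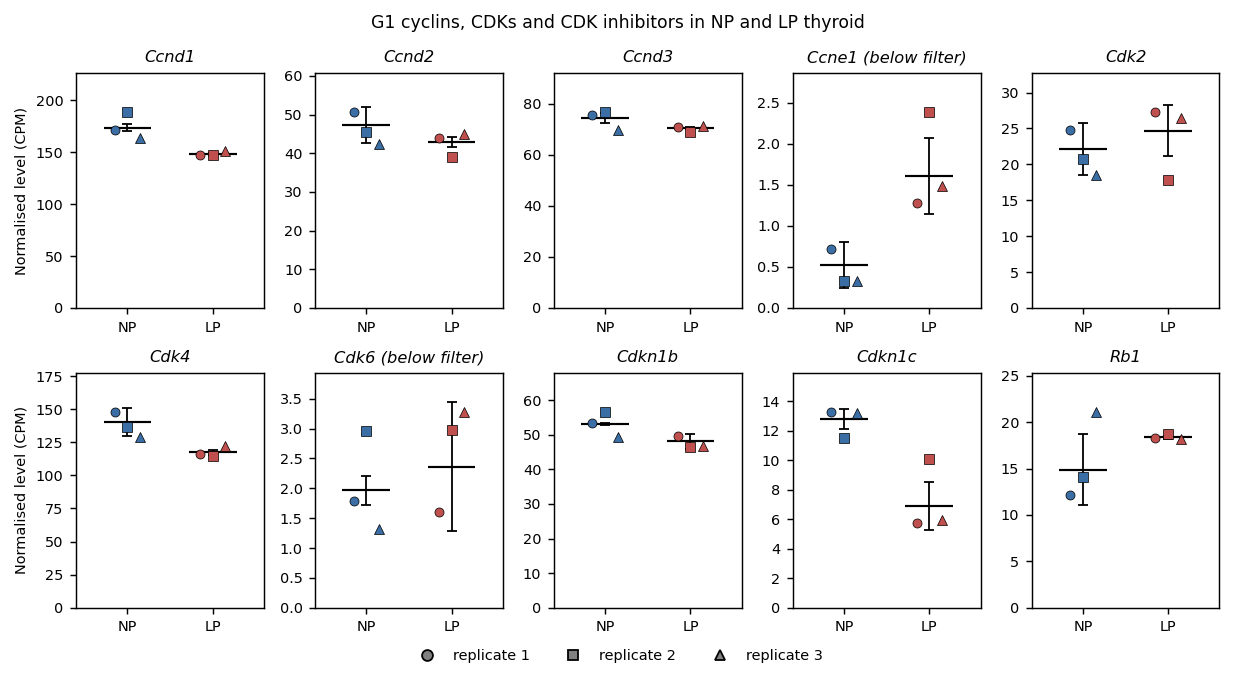
Level of each member in CPM (y axis, from 0) in the NP and LP libraries (x axis). Circles, squares and triangles are replicates 1, 2 and 3, the bar is the group mean and the error bar the SD with replicates 2 and 3 averaged (n = 2). For Ccnd1, Cdk4 and Cdkn1c, every LP library lies below every NP library.

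Ccnd1, the D-type cyclin best known as the sensor of growth factor signals, was measured at 171, 188 and 164 CPM in NP replicates 1, 2 and 3 and at 147, 147 and 151 CPM in LP. The LP libraries lay close together and all below the lowest NP library, which was replicate 3. The group values were 174 ± 3.5 CPM in NP and 148 ± 1.4 CPM in LP (SD, n = 2), and Ccnd1 (ENSRNOT00000028411) fell by 15.04% in LP. On the log2 scale this was -0.24 with a standard error of 0.062, and edgeR gave an adjusted p-value of 0.00838. The size was alike in replicate 1 (-0.22) and in replicates 2 and 3 (-0.24). The adjusted p-value was 0.0362 with replicates 2 and 3 summed and 0.0437 in DESeq2. Without NP replicate 2, the highest library, the log2 fold change was -0.18 and the call was lost (adjusted p = 0.0573 in edgeR).

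The other D-type cyclins did not pass the test. Ccnd2, which like Ccnd1 pairs with Cdk4 and Cdk6, was at 50.6, 45.4 and 42.5 CPM in NP and at 43.9, 39.0 and 45.0 CPM in LP. The groups overlapped, with LP replicates 1 and 3 above NP replicate 3. Its log2 fold change was -0.11, with a 95% interval from -0.32 to 0.095 (adjusted p = 0.452 in edgeR). Ccnd3, the third member of this family, was at 75.7, 76.6 and 69.5 CPM in NP and at 70.8, 69.0 and 71.2 CPM in LP. Here NP replicate 3 lay among the LP libraries. The log2 fold change of Ccnd3 was -0.071, with an interval from -0.22 to 0.075 (adjusted p = 0.554 in edgeR). The interval of Ccnd2 included the value measured for Ccnd1, and the interval of Ccnd3 ended close to it, so the 3 genes were also set against each other within each library.

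Together the D-type cyclins took 829, 944 and 837 reads in NP and 816, 857 and 896 reads in LP, or 276 to 310 CPM in NP and 255 to 267 CPM in LP. Ccnd1 made up 57.5%, 60.7% and 59.4% of these reads in NP and 56.1%, 57.6% and 56.5% in LP. A share within a library does not depend on how libraries are scaled to each other. NP replicate 1 and LP replicate 2 had nearly the same share, and the groups overlapped by this narrow margin. The difference in the mean share of Ccnd1 over 3 libraries, LP minus NP, was -2.46 percentage points (p = 0.2, two-sided exact permutation test, smallest possible p 0.1). The share of Ccnd3 was 25.5%, 24.7% and 25.2% in NP and 27.1%, 27.1% and 26.7% in LP, so that each LP library was above each NP library. This difference of 1.83 percentage points had p = 0.1 in the exact permutation test, the smallest that 3 against 3 libraries allow, and the adjusted p over the 3 shares was 0.3. The binomial 95% intervals (exact Clopper-Pearson) of the single libraries, which cover counting error only, were wider than these differences, for instance from 22.5% to 28.6% for Ccnd3 in NP replicate 1. With replicates 2 and 3 summed, the exact permutation test gave p = 0.333 for Ccnd1 and for Ccnd3, the smallest that 2 against 2 samples allow. The number of libraries is thus too small for this test to pass the threshold, and it neither shows a shift in the make-up of D-type cyclin reads nor speaks against one.

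**Figure D2:**
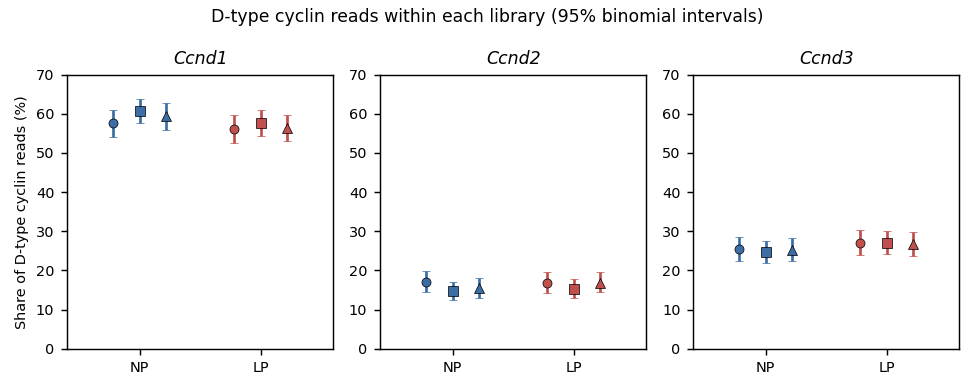
Share of each D-type cyclin in the reads of Ccnd1, Ccnd2 and Ccnd3 together (y axis, percent) in each NP and LP library (x axis). Circles, squares and triangles are replicates 1, 2 and 3, and the bars are exact binomial 95% intervals, which overlap between the groups for all 3 genes.

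Cdk4, the kinase partner of the D-type cyclins, was also lower in LP. It was at 148, 136 and 129 CPM in NP and at 116, 115 and 122 CPM in LP. All LP libraries were below the lowest NP library, with NP replicate 3 and LP replicate 3 nearest to each other. The group values were 140 ± 10.6 CPM in NP and 117 ± 1.8 CPM in LP (SD, n = 2), and Cdk4 (ENSRNOT00000031796) fell by 14.4% in LP. On the log2 scale the fold change was -0.22 (standard error 0.062, adjusted p = 0.0121 in edgeR). It was larger in replicate 1 (-0.35) than in replicates 2 and 3 (-0.16). With replicates 2 and 3 summed the adjusted p-value was 0.0388. The call was lost in DESeq2 (adjusted p = 0.104), and also in edgeR without NP replicate 1 (log2 fold change -0.17, adjusted p = 0.0522) and without LP replicate 2 (-0.21, adjusted p = 0.0525). In the RefSeq annotation of GRCr8, Cdk4 shares bases with Tspan31. The strand setting of the read counting is not given in the sources used here, so reads of the shared part cannot be assigned with certainty.

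The promoter window of Cdk4 is shown because Cdk4 is the only member called lower in LP that the RefSeq promoter table lists. The table covers 6 of the 10 members (Ccnd3, Ccne1, Cdk2, Cdk4, Cdkn1b and Rb1) and gives 250 bases before to 50 bases after each start. It is of build GRCr8, which is not the build of the counts. The Cdk4 window lies at chr7:64771203-64771502 on the plus strand. Capitals mark the E-box CACGTG, which Myc and Max bind, and the GC box GGGCGG, which Sp1 binds, read on both strands.
Cdk4: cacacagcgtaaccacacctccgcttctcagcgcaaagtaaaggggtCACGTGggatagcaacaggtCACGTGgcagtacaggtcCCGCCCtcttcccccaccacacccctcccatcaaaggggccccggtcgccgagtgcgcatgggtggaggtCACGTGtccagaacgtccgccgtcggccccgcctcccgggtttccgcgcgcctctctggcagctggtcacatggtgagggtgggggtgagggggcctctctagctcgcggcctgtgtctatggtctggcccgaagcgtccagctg
The E-box letters occur 3 times, starting 203, 183 and 95 bases before the start. Of all 33469 promoter windows of the table, 6.42% hold CACGTG, and Cdk4 was the only 1 of the 6 listed members to do so. The GC box was present in all 6 members and in 33.1% of all windows. The E-box and GC box were added to the search after the counts had been examined. A match is a description of the letters and no evidence that a factor was bound.

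Cdk6, the other kinase of the D-type cyclins, was below the filter, with 5, 9 and 4 reads in NP and 5, 10 and 11 reads in LP. With 18 reads in NP and 26 in LP in all, the ratio of LP to NP was 1.30, with a 95% counting interval from 0.687 to 2.52. So few reads could show neither a rise nor a fall of moderate size. Ccne1, the cyclin that activates Cdk2 late in G1, was also below the filter, with 2, 1 and 1 reads in NP and 4, 8 and 5 reads in LP. Every LP library was above every NP library, but each NP count was below 3 reads, a level that corresponded to 0.893 to 1.08 CPM. The ratio of LP to NP over 17 and 4 reads was 3.83, with a 95% counting interval from 1.25 to 15.6, which covers counting error only. The test in edgeR without the filter gave a log2 fold change of 1.84 with a standard error of 0.69 and an adjusted p-value of 0.0654, and DESeq2 gave an adjusted p-value of 0.326. The direction of Ccne1 was thus upward in these libraries, while the test over all genes did not call it.

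Cdk2, the partner of cyclins E and A, was at 24.7, 20.7 and 18.5 CPM in NP and at 27.2, 17.9 and 26.5 CPM in LP. LP replicate 2 was the lowest of the 6 libraries, whereas the other LP libraries were the highest. The log2 fold change was 0.17, with a 95% interval from -0.19 to 0.52 (adjusted p = 0.524 in edgeR). Cdk2 shares bases with Pmel in the GRCr8 annotation, Ccnd3 with LOC134480552 and LOC134480554, and Cdk6 with LOC134486561.

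Cdkn1c, the inhibitor p57, is an imprinted gene that is expressed in many cells that have left the cycle. It had 37, 35 and 40 reads in NP and 18, 34 and 20 reads in LP, or 13.3, 11.5 and 13.2 CPM against 5.77, 10.1 and 5.96 CPM. All LP libraries lay below all NP libraries, but LP replicate 2 was nearer to the lowest NP library than to the other LP libraries. The group values were 12.8 ± 0.65 CPM in NP and 6.90 ± 1.6 CPM in LP (SD, n = 2). Cdkn1c (ENSRNOT00000077409) fell by 42.0% in LP, the largest change of the 8 members tested. The change was -0.79 on the log2 scale (standard error 0.23, adjusted p = 0.0177 in edgeR), with -1.20 in replicate 1 and -0.62 in replicates 2 and 3. With replicates 2 and 3 summed the adjusted p-value was 0.03. The call was lost in DESeq2 (adjusted p = 0.117), and in edgeR without NP replicate 3 (log2 fold change -0.76, adjusted p = 0.0552), without LP replicate 1 (-0.66, adjusted p = 0.0568) and without LP replicate 3 (-0.66, adjusted p = 0.0848). Without LP replicate 2, the highest LP library, the log2 fold change was -1.10 (adjusted p = 0.00372 in edgeR), past the 2-fold cutoff.

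Cdkn1b, the inhibitor p27 that holds resting cells in G1, was at 53.4, 56.5 and 49.4 CPM in NP and at 49.7, 46.4 and 46.8 CPM in LP. NP replicate 3 and LP replicate 1 were almost equal, and the groups overlapped there. The log2 fold change of Cdkn1b was -0.16, with a 95% interval from -0.34 to 0.023 (adjusted p = 0.213 in edgeR). Decreases of the size measured for Ccnd1 and Cdk4 are within this interval, and log2 increases above 0.023 are outside it.

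Rb1, which holds E2F factors inactive in resting cells, was at 12.2, 14.1 and 21.1 CPM in NP and at 18.3, 18.7 and 18.2 CPM in LP. The NP libraries were spread more widely than the LP libraries, and NP replicate 3 was the highest of all. The log2 fold change was 0.21, with an interval from -0.18 to 0.60 (adjusted p = 0.447 in edgeR), and was 0.58 in replicate 1 against 0.068 in replicates 2 and 3. Rb1 shares bases with Lpar6 and with LOC134482150 in the GRCr8 annotation. The Rb1 promoter window, at chr15:54911808-54912107 of GRCr8 on the minus strand, is shown because it was the only 1 of the 6 listed members with letters of an E2F site. The 4 spellings of this site that were searched on both strands were TTTCCCGC, TTTCGCGC, TTTGCCGC and TTTGGCGC, and 2.14% of all windows hold at least 1 of them. Capitals mark the E2F letters TTTCCCGC and the GC box GGGCGG.
Rb1: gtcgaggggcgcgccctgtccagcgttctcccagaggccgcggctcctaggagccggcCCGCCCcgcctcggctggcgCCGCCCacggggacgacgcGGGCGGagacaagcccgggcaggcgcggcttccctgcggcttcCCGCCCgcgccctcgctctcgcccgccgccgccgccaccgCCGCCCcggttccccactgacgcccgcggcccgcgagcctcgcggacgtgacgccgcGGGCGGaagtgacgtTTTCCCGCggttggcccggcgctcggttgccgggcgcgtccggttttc
The E2F letters start 2 bases after the annotated start, and the GC box letters occur 6 times before it. The letters TTTGAA of the cell cycle homology region, present in 18.3% of all windows, were in none of the 6 member windows, which says only that these letters are not there.

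**Figure D3:**
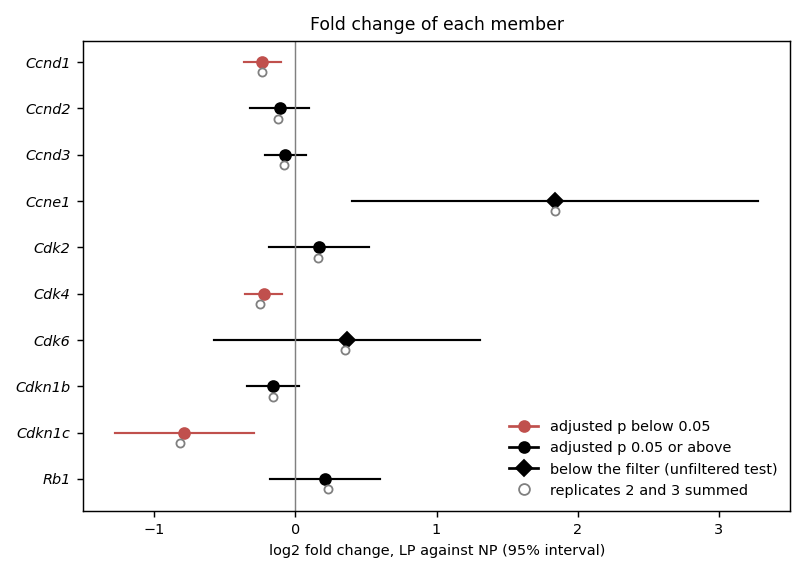
log2 fold change of each member, LP against NP (x axis), with unadjusted 95% intervals. Red circles are the 3 members with an adjusted p-value below 0.05 (Ccnd1 at -0.24, Cdk4 at -0.22 and Cdkn1c at -0.79), black circles the other tested members, diamonds the members below the filter, and open circles the values with replicates 2 and 3 summed.

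Across the 8 tested members, 6 had a log2 fold change below 0 and 2 above 0. In 3 of them (Ccnd1, Cdk4 and Cdkn1c) every LP library was below every NP library, which was the case for 18.9% of all genes tested. None of the 8 had every LP library above every NP library, against 21.2% of all genes tested. The lower members thus included a cyclin and its kinase as well as an inhibitor, and the drop was smaller in Ccnd1 and Cdk4 than in Cdkn1c, a difference that was not tested.

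The genes that act around these members were taken from 8 lists of the G1 to S pathway with 95 genes, of which 77 were tested. Of the 77, 23 were higher in LP (29.9%) and 5 were lower (6.49%) in edgeR, against 15.3% higher and 11.7% lower among all genes tested. The same 15.3% higher and 11.7% lower of all genes tested stand beside each edgeR count of a list or of cell type markers below. The median log2 fold change of the 77 was 0.11. The 2 other settings had filters of their own, so their counts cover the 91 measured genes of the lists and not only the 77. With replicates 2 and 3 summed, 23 of the measured genes were higher and 3 lower, where 12.3% and 8.36% of all genes were called. In DESeq2, 14 were higher and 4 lower, where 8.53% and 4.74% of all genes were called. Both settings called Ccna2 and Mybl2, which were below the main filter, and neither called Rbl1.

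Among the other cyclins and kinases, 2 of 6 tested genes rose and the other 4 did not pass the test. Cdk1, the kinase of mitotic entry, rose from 2.18 ± 0.98 to 9.04 ± 0.36 CPM (SD, n = 2), a log2 fold change of 2.20 (adjusted p = 3.64e-05 in edgeR). Ccng2, an atypical cyclin that is not a partner of the G1 kinases and is linked to cell cycle arrest, rose, with 0.53 on the log2 scale (adjusted p = 0.0147 in edgeR), but not in DESeq2 (adjusted p = 0.184). Ccna2, the cyclin A of S phase, was below the filter with 3, 4 and 2 reads in NP and 22, 9 and 16 reads in LP, and without the filter it was higher by 2.19 on the log2 scale (adjusted p = 0.00229 in edgeR). Ccne2, the sister of Ccne1, was counted with 3, 8 and 7 reads in NP against 10, 11 and 4 in LP, with overlapping groups.

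Of the 9 genes of the CDK-activating kinase and the phosphorylation switches of the kinases, 1 rose and 1 fell. Cdc25b, a phosphatase that activates cyclin-dependent kinases, rose from 21.8 ± 1.4 to 32.5 ± 2.0 CPM (SD, n = 2), a log2 fold change of 0.53 (adjusted p = 0.00309 in edgeR, 0.0597 in DESeq2). Wee1, the kinase that opposes it, fell from 42.3 ± 0.47 to 26.7 ± 2.4 CPM, a log2 fold change of -0.63 (adjusted p = 0.000145 in edgeR). Other genes of this list had values in the opposite directions and did not pass the test. Pkmyt1 had a log2 fold change of 0.62 (adjusted p = 0.0632 in edgeR). Cdc25a and Cdc25c had -0.24 and -0.22 (adjusted p = 0.32 and 0.728 in edgeR). The 3 subunits of the CDK-activating kinase, Cdk7, Ccnh and Mnat1, had log2 fold changes of -0.25, -0.10 and -0.16 and did not pass the test.

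Among the 4 tested genes of the other inhibitors, 1 rose and 1 fell. Cdkn1a, the inhibitor p21 of the same family as Cdkn1b and Cdkn1c, was at 19.4, 14.1 and 12.5 CPM in NP and at 34.6, 31.5 and 36.0 CPM in LP. The libraries of the groups were well apart, and Cdkn1a rose by 1.16 on the log2 scale (adjusted p = 1.1e-05 in edgeR). Of the 3 inhibitors of this family, Cdkn1a was thus higher, Cdkn1c lower and Cdkn1b did not pass the test, and the differences between them were not tested. Cdk2ap2, a small protein related to a Cdk2-binding protein, fell, with -0.49 on the log2 scale (adjusted p = 4.84e-05 in edgeR). Of the INK4 inhibitors, which block Cdk4 and Cdk6, Cdkn2a had 1 read in each group and Cdkn2b had 6, 7 and 5 reads in NP against 3, 5 and 1 in LP. Cdkn2c passed the filter with a log2 fold change of 0.52 and an adjusted p-value of 0.202 in edgeR.

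Of the 6 tested pocket protein and MuvB genes, Rbl1 (p107), a relative of Rb1, rose, with 0.81 on the log2 scale (adjusted p = 0.0332 in edgeR), and Rbbp4, a histone-binding protein, fell with -0.50 (adjusted p = 0.0307). Neither passed with replicates 2 and 3 summed (0.0666 and 0.0701) or in DESeq2 (0.26 and 0.254). Mybl2, of the same list, was below the filter, with 1, 1 and 1 reads in NP and 11, 18 and 9 reads in LP. Without the filter it was higher by 3.36 on the log2 scale (adjusted p = 0.000265 in edgeR, 0.00699 in DESeq2). Of the 7 tested E2F and DP factors, E2f6, a repressor of E2F target genes, rose from 26.9 ± 3.1 to 60.5 ± 0.98 CPM (SD, n = 2), a log2 fold change of 1.12 (adjusted p = 1.06e-07 in edgeR). E2f1, an activator that is itself an E2F target, was counted with 4, 8 and 10 reads in NP against 15, 20 and 23 in LP, a log2 fold change of 1.24 (adjusted p = 0.011 in edgeR, 0.118 in DESeq2). E2f4, the main partner of p107 and p130, and Tfdp1, the common dimer partner of E2F factors, had log2 fold changes of 0.020 and 0.0012 and did not pass the test.

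Of the 11 tested ubiquitin ligase genes that act on p27, cyclin E or cyclin D, 3 rose and 1 fell. Fbxo31, a subunit that marks cyclin D1 for destruction after DNA damage, rose, with 1.03 on the log2 scale (adjusted p = 7.98e-08 in edgeR). Fbxw7, which marks cyclin E, rose with 0.52 (adjusted p = 0.0216 in edgeR, 0.198 in DESeq2), and Rnf123, a subunit of a ligase for p27 in G1, with 0.40 (adjusted p = 0.000228). Skp1, the adaptor of SCF ligases, fell with -0.29 (adjusted p = 0.00054). Of the 19 transcription factors upstream of these genes, 6 rose and 1 fell. The largest changes were those of Jun (0.95), an activator of Ccnd1, Foxo4 (0.68), which induces Cdkn1b, Mycn (0.58) and Stat5b (0.49), a mediator of prolactin signals, with adjusted p-values of 0.0101 or smaller in edgeR. Of these 4, Stat5b did not pass in DESeq2 (adjusted p = 0.0844). The gene that fell was Mxd4, an antagonist of Myc, with -0.21 (adjusted p = 0.00515 in edgeR, 0.0508 with replicates 2 and 3 summed). Myc rose by 0.37 on the log2 scale (adjusted p = 0.0032 in edgeR, 0.0705 in DESeq2). A relation of these factors to the levels of Ccnd1 and Cdk4 was not tested.

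The 15 tested E2F target genes of S phase entry had the highest median of the 8 lists, 0.38, with 7 genes higher, where 15.3% of all genes tested were higher, and the other 8 not passing the test. Uhrf1, which maintains DNA methylation in replicating cells, had 4, 5 and 7 reads in NP and 35, 38 and 41 reads in LP, a log2 fold change of 2.66 (adjusted p = 1.3e-06 in edgeR). Mcm5, a subunit of the replicative helicase, rose with 1.64 (adjusted p = 6.62e-05), Tk1, thymidine kinase, with 1.503 (adjusted p = 0.000262), and Cdt1, a licensing factor, with 1.10 (adjusted p = 0.00735 in edgeR, 0.064 in DESeq2). Pcna, the sliding clamp of DNA polymerase, was counted with 108, 106 and 111 reads in NP against 114, 125 and 140 in LP, a log2 fold change of 0.071 (adjusted p = 0.679 in edgeR). In DESeq2, 4 of the 18 measured genes of this list were higher, where 8.53% of all genes were.

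**Figure D4:**
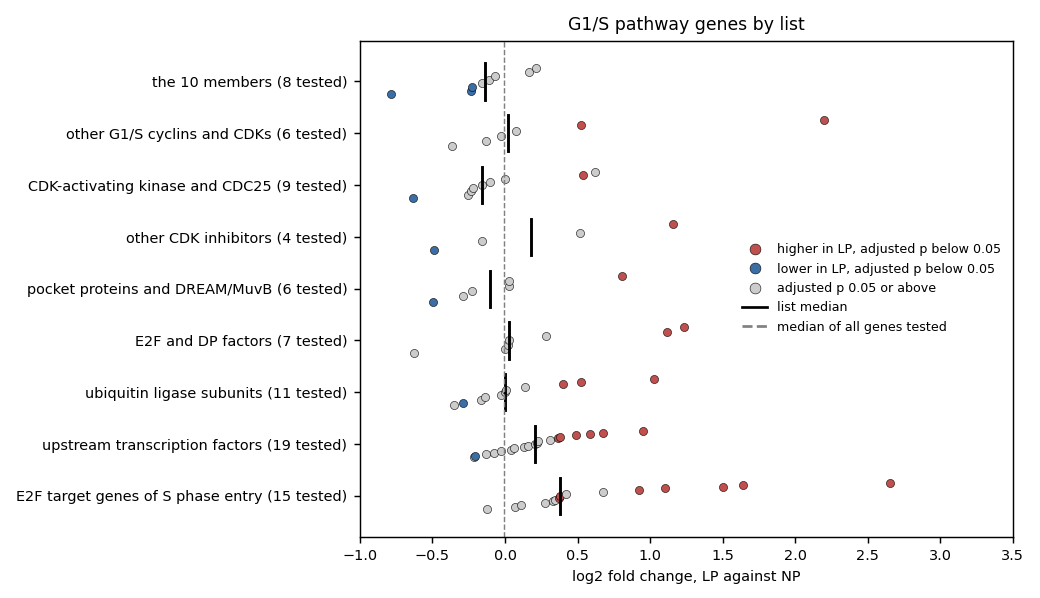
log2 fold change, LP against NP (x axis), of the tested members and of the tested genes of 8 pathway lists (rows). Red and blue points are genes higher or lower at an adjusted p-value below 0.05, grey points did not pass, black bars are list medians (-0.14 for the members and 0.38 for the E2F target genes) and the dashed line is the median of all genes tested.

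Markers of other cell types also moved between the groups. Of 7 endothelial markers, 5 fell, where 11.7% of all genes tested were lower, and their sum went from between 734 and 760 CPM in NP to between 602 and 616 CPM in LP. The 11 follicular cell markers had a median log2 fold change of -0.052, with 3 higher and 3 lower. The 7 markers of proliferating cells summed to between 25.1 and 33.2 CPM in NP and between 82.4 and 90.3 CPM in LP, with 4 of 5 tested higher, where 15.3% of all genes tested were higher. Airway epithelium markers summed to between 11.5 and 12.9 CPM in NP and between 24.4 and 28.5 CPM in LP, with 2 of 3 tested higher. Of the 7 C cell markers, 1 was higher and 1 lower, and of the 3 parathyroid markers 1 was lower, beside the lower sums of both lists in LP given above. Leukocyte markers summed to between 38.2 and 46.6 CPM in NP and between 48.8 and 51.3 CPM in LP, with none of the 4 tested called in edgeR (1 at an unadjusted p-value below 0.05) or DESeq2. The sums of fibroblast and adipocyte markers overlapped between the groups. The part of these cell types in the values of the G1 genes was not tested.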

How the data were processed

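RNA-seq was made from thyroid of NP and LP rats, with 3 libraries for each group, with the TruSeq kit on a HiSeq instrument. The study names 3 rats for each of these groups, while the sample labels give repeat numbers only. TopHat 1.4.0 was used by the authors for mapping to the rn5 assembly, and reads were counted on Ensembl gene models with HTSeq. They deposited raw read counts per gene, not normalized, with 1 file per library. The members and gene lists were chosen with earlier results of these data known. The analysis used edgeR 4.0.16 and limma 3.58.1 under R 4.3.3. The main comparison used all 6 libraries, TMM scaling, the filterByExpr filter and the quasi-likelihood test without a block, which the study's methods do not mention, and members below the filter were tested without it. Standard errors were taken from the log2 fold change and the F statistic. The alternatives were DESeq2 1.42.0, other scalings and filters, libraries left out, replicates 2 and 3 summed, and a block on replicate number. For the pairing, deviations of libraries from their group means were correlated across genes. Same-numbered libraries gave 0.493, 0.223 and 0.192, and replicates 2 and 3 crossed gave like values (0.216 and 0.216). These values set replicate 1 apart but do not show that replicates 2 and 3 are paired by number. The block therefore rests on an assumed pairing. The block lowered edgeR's coefficient of variation from 0.0645 to 0.0131. The depth was 2752144 to 3449857 reads per library, at which 3 reads were 0.893 to 1.08 CPM. The steps were tested on simulated counts. Named in the text are the 10 members, up to 4 called genes of each list with the largest change, genes that make up counts of 5 or fewer, and further list genes chosen after their values were seen (Myc and those with uncalled or unfiltered values). Protein sequences were not used here.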

Additional observations from a re-analysis of the deposited data

How the results depend on the processing

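No member changed direction in the alternatives that gave it a value, which were 13 for Ccne1 and Cdk6, 14 for Cdkn1c (too few reads for the filter of 50) and 15 for the other 7 members. Ccnd2, Ccnd3, Cdk2, Cdkn1b, Rb1, Ccne1 and Cdk6 remained uncalled in these. With each library left out in turn, the log2 fold change ranged from -0.29 to -0.18 for Ccnd1, from -0.28 to -0.17 for Cdk4 and from -1.10 to -0.66 for Cdkn1c. Each time 2 members were called lower, where between 1088 and 1273 genes were lower over all genes. DESeq2 called 1 member lower, with log2 fold changes of -0.23 for Cdk4 and -0.80 for Cdkn1c that no longer passed. With the replicate block, the pairing being assumed from the numbers, 3 members were called lower, where 1727 genes were lower over all genes. Ccnd1 then had an adjusted p-value of 0.000108 in edgeR, and the block changed no call of a member. This setting counts replicates 2 and 3 as separate samples although they agreed within sampling noise. Its p-values may therefore be too small and add no weight to the calls. Over all genes, DESeq2 called 1185 higher and 658 lower, library totals without TMM called 2146 lower, and a mean of at least 50 reads left 286 genes higher and 29 lower past the 2-fold cutoff. Of the listed pathway genes, DESeq2 called 14 higher, the filter of 50 reads left 15 higher, and replicates 2 and 3 summed left 3 lower. The causes of these differences were not tested, and a stricter filter also tests fewer genes. The depth limited Ccne1 and Cdk6 most, at 1 to 11 reads per library.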
